A study of Mus musculus with 6 samples.

Results

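Glutathione S-transferases were followed in epidermal keratinocytes of mice that had lost Lama3. The members were 10 genes given by name, from the cytosolic alpha, mu, omega, pi and theta classes and from the membrane-bound microsomal group, and all 10 were found among the 45513 gene identifiers of the count table. Of these, 9 had enough counts to be tested and 1, Gstp1, was listed at or near 0 in every library. Glutathione S-transferases join the tripeptide glutathione to reactive electrophiles, which makes toxic products of lipid oxidation and foreign chemicals soluble and ready for export. Several family members are transcribed under the control of NRF2, a factor that cells activate under oxidative or electrophilic stress. In skin these enzymes form part of the defence against ultraviolet light, oxidants and chemicals.

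The knockout mice, named LAMA3_KO 1 to 3, carried 2 floxed alleles of Lama3 and the controls, named Control 1 to 3, carried 1 floxed and 1 wild type allele per the design text, although the genotype label of the controls reads wild type. Both groups were C57BL/6 and carried K14-CreERT, a Cre recombinase that tamoxifen activates and that the keratin 14 promoter drives in basal keratinocytes, and the design text describes activation by chow with 400 mg tamoxifen citrate per kg. The floxed part of the gene is exons 50 to 53. Loss of laminin 332, the laminin that anchors the epidermis to its basement membrane, is described as progressive, and neither the age of the mice nor the time on tamoxifen is given in the sources used here. RNA came from keratinocytes isolated from the skin of 3 mice per group, and cells in which Cre is not active keep the gene.

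Library totals lay between 20126395 and 28473479 counts. Lama3 stood at 97.3, 98.9 and 79.2 CPM, counts scaled to the size of the library, in LAMA3_KO 1 to 3, against 141, 142 and 114 CPM in Control 1 to 3, so all knockouts were below all controls, and gene counts include exons outside the deleted part. Its log2 fold change was -0.53 (SE 0.14, edgeR's quasi-likelihood test, adjusted p = 0.0215 after Benjamini-Hochberg correction across the tested genes), and this call was lost without Control 1, without Control 2 or without LAMA3_KO 1 (adjusted p up to 0.0620). Lamb3, which encodes the beta chain of laminin 332, had a log2 fold change of 0.80 (SE 0.27) and was not called. Xist and Y-linked counts showed 2 females and 1 male among the knockouts and 1 female and 2 males among the controls. Basal keratinocyte markers summed to 15979 to 21754 CPM in knockout libraries and 16871 to 23278 CPM in control libraries, and the groups overlapped. Of these 8 markers Itgb4 (0.90) and Cdh3 (0.71) were called higher and Krt15 (-0.93) lower on the log2 scale. Markers of other skin cells also differed between the groups, as given with the results they accompany.

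The promoters of the 4 members that changed are shown here because 3 of them fell together and 1 rose. Each line gives the 250 bases before the RefSeq transcription start (GRCm38.p6), 5′ to 3′ on the gene's strand. Capitals mark matches to the antioxidant response element core TGACNNNGC, to which NRF2 binds with its small Maf partners, and to the core GCGTG bound by the aryl hydrocarbon receptor, both searched on either strand.
Mgst1 (chr6:138140277-138140526, plus strand): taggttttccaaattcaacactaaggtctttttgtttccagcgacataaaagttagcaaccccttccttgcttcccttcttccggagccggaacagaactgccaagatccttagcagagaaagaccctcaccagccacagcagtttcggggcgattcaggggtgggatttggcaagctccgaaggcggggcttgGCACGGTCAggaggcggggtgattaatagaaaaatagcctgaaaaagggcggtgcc
Gstm5 (chr3:107895604-107895853, plus strand): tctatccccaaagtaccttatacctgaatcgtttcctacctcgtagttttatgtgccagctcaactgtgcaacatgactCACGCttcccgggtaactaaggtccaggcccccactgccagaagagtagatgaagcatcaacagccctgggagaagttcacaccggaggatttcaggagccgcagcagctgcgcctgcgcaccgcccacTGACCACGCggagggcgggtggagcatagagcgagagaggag
Gstm2 (chr3:107986421-107986670, minus strand): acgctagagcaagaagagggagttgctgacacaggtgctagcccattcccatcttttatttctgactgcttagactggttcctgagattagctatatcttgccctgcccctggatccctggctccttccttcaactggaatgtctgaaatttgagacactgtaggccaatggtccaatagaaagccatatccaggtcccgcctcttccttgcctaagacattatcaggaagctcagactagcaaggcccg
Gsto1 (chr19:47854723-47854972, plus strand): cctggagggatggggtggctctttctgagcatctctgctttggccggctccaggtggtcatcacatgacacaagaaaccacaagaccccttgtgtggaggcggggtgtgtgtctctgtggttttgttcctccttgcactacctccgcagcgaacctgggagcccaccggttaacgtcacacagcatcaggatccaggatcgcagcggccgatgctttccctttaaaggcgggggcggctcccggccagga

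The Mgst1 window held 1 match to TGACNNNGC, on the opposite strand, beginning 56 bases before the start. The Gstm5 window held 1 such match, beginning 42 bases before the start, which overlaps a reverse match to GCGTG, and a further reverse match to GCGTG lay upstream. The windows of Gstm2 and Gsto1 held neither. RefSeq also lists a second Mgst1 start, whose window held no match. Gsta4 had no window and was not searched, while the untested Gstp1 had one. Among the 9 members with a window, 3 held TGACNNNGC (Gsta3, Gstm5 and Mgst1), against 11.5% of all 27025 genes with a window, and 3 held GCGTG (Gstm1, Gstm5 and Gstp1), against 30.9%. These are matches of letters and not measured binding.

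The comparison of knockout with control keratinocytes asked which transcripts differ when Lama3 is lost. Of the 9 tested members, 1 rose in the knockouts (Gsto1), 3 fell (Mgst1, Gstm2 and Gstm5) and 5 were not called. Calls were made at an adjusted p under 0.05, again by edgeR's quasi-likelihood test over all 15513 genes tested, and among all these genes 36.2% were called, 17.4% higher and 18.8% lower. The 4 called of 9 members are 44.4%, near that background, so the share of members called is not a result about the family. The median log2 fold change of the tested members was -0.27, against -0.02 over all genes tested. In 5 of the 9 the knockout and control libraries did not overlap, against 51.7% of all genes tested.

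**Figure D1:**
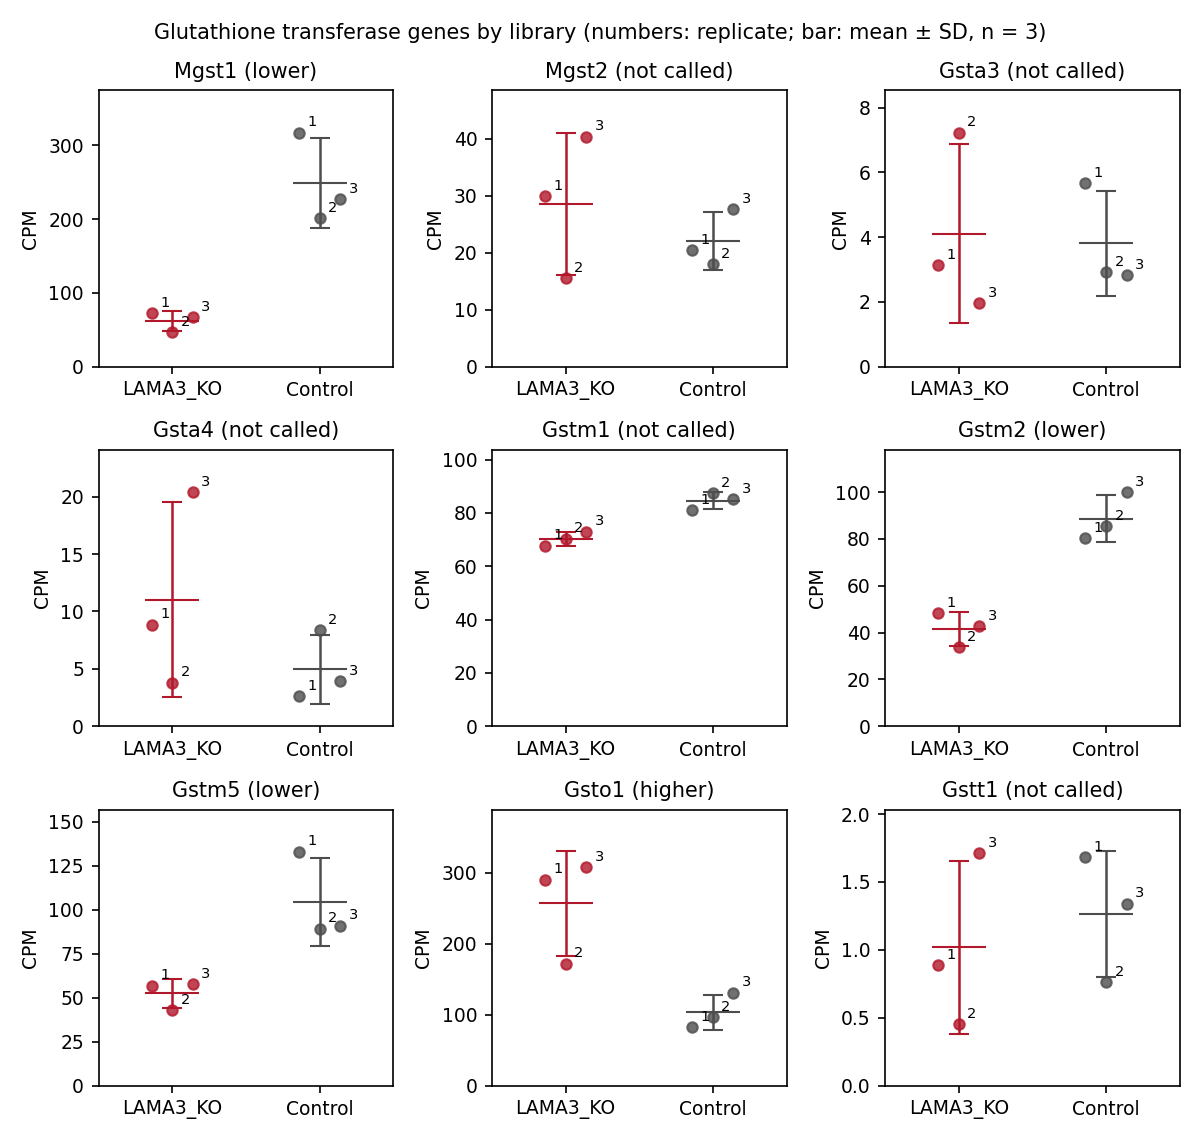
CPM (y axis, linear, from 0) of each tested glutathione transferase gene in the LAMA3_KO and Control libraries (x axis), with points numbered by replicate and bars for the mean ± SD of 3 libraries. Mgst1, Gstm2 and Gstm5 lie lower and Gsto1 higher in every LAMA3_KO library than in any Control library, and LAMA3_KO 2 is the lowest knockout library in 7 of 9 panels.

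Mgst1 changed the most among the members. It encodes microsomal glutathione transferase 1, a membrane enzyme of the endoplasmic reticulum and outer mitochondrial membrane that also reduces lipid hydroperoxides, and it lies on chromosome 6 (GRCm38, 138140316 to 138156755, plus strand). Its level was 72.5, 46.8 and 67.3 CPM in LAMA3_KO 1 to 3, against 317, 201 and 227 CPM in Control 1 to 3. Every knockout library lay far below every control library. The means were 62.2 ± 13.6 CPM in knockouts and 248 ± 60.9 CPM in controls (SD, n = 3 each), which gave a log2 fold change of -2.00 (SE 0.23, edgeR's adjusted p = 0.00163). Mgst1 stayed lower and called with each library left out (log2 fold change -2.12 to -1.78).

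Most tested markers of sebaceous glands, whose cells are rich in lipid and which open into the hair follicle, were lower in the knockouts, as Mgst1 was. Of 12 tested sebaceous markers 7 fell and 1, Dgat2, rose (1.33 on the log2 scale, SE 0.23). The summed level of all 13 was 1161 to 1825 CPM in knockout libraries and 1854 to 2349 CPM in control libraries, so the ranges nearly met. Its largest part was Scd1, which was not called (600 ± 212 CPM in knockouts and 863 ± 139 CPM in controls). None of the 13 was at 0. Awat2, a wax ester synthase of these glands, averaged 3.33 ± 1.46 CPM in knockouts and 39.1 ± 9.03 CPM in controls (SD, n = 3 each), and Soat1, which esterifies cholesterol, fell by 1.33 on the log2 scale (SE 0.14, edgeR's adjusted p = 0.00127). Hair shaft and sheath markers moved in the same libraries, with 13 of 14 tested lower and sums of 19.8 to 27.4 CPM in knockouts and 86.8 to 314 CPM in controls, led by the inner root sheath keratins Krt27 (-6.12) and Krt25 (-7.45). Among the controls, Awat2, Soat1, Krt27 and Krt25 were each highest in Control 2, where Mgst1 was lowest, while Dgat2 was highest in Control 1, as Mgst1 was. In bulk RNA, fewer cells of a type and less RNA per cell cannot be told apart, and the part of these cells in the Mgst1 difference was not tested.

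Mgst2, a microsomal enzyme that can also make leukotriene C4, was not called. It was measured at 29.9, 15.6 and 40.4 CPM in LAMA3_KO 1 to 3, against 20.5, 18.0 and 27.7 CPM in Control 1 to 3. The groups overlapped, since LAMA3_KO 2 lay below every control library while the other knockouts lay above every control library. Its log2 fold change was 0.38 (SE 0.33, edgeR's adjusted p = 0.388).

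The mu class genes Gstm1, Gstm2 and Gstm5 lie in a cluster on chromosome 3 and encode cytosolic enzymes that act on a wide range of electrophiles. Gstm2 and Gstm5 fell, and Gstm1 was lower in every knockout library without passing the test. Gstm2 (107981702 to 107986453, minus strand) stood at 48.2, 33.8 and 42.9 CPM in LAMA3_KO 1 to 3, against 80.4, 85.6 and 100 CPM in Control 1 to 3. The groups were well apart, and the log2 fold change was -1.09 (SE 0.16, edgeR's adjusted p = 0.00302). Gstm5 (107895821 to 107898686, plus strand) stood at 56.8, 42.8 and 57.6 CPM in LAMA3_KO 1 to 3, against 133, 89.2 and 91.0 CPM in Control 1 to 3. Control 1 was the highest library for this gene, and the groups did not overlap. The log2 fold change of Gstm5 was -0.99 (SE 0.19, edgeR's adjusted p = 0.00774), and its call was lost in a test against a fold of 1.5 (adjusted p = 0.0845).

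Gstm1 (108012255 to 108017973, minus strand) was the steadiest member. It stood at 67.7, 70.4 and 73.0 CPM in LAMA3_KO 1 to 3, against 81.1, 87.4 and 85.3 CPM in Control 1 to 3. The 2 groups did not overlap, and each was narrow. The log2 fold change was -0.27 (SE 0.10, edgeR's adjusted p = 0.0624), and it was called with upper-quartile factors (-0.41, adjusted p = 0.0140) and with a filter of 1 CPM in 3 libraries (-0.28). Per kilobase of exon, the ratio of Gstm1 to Gstm2 was 1.60, 2.37 and 1.94 in LAMA3_KO 1 to 3, against 1.15, 1.16 and 0.972 in Control 1 to 3, so the balance of these neighbours lay toward Gstm1 in each knockout library.

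Reads of the mu class may be split between copies. In the longest transcript of Gstm1, 23.1% of the 50-base words and 7.73% of the 100-base words also occur in another gene's transcript, Gstm3 and pseudogenes among them. For Gstm2 these shares were 9.36% and 0.622%. Gstm1 and Gstm2 share 50-base words with each other but no 100-base words, and how far this affects their ratio was not tested. The exons of Gstm5 overlap those of 4933431E20Rik over 13.9% of their bases, and whether the counting used strand is not given in the sources used here. How reads with several matches were counted is not given either, so the mu class values are uncertain to that extent. The summed level of dermal fibroblast markers, most of it Vim, was lower in the same libraries (118 to 157 CPM in knockouts and 201 to 323 CPM in controls). Of 9 markers 4 were called lower, led by Dcn at -1.60 and Dpt at -3.37, and none was at 0. The collagen genes Col1a1 (-0.18), Col1a2 (-0.44), Col3a1 (-0.47) and Col6a3 (-1.56) and Pdgfra (-0.62) overlapped between the groups and were not called. The part of fibroblasts in the mu class differences was not tested.

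Gsto1 was the member that rose. It encodes omega class transferase 1, which carries a cysteine in its active site, reduces dehydroascorbate and removes glutathione from protein thiols, and it lies on chromosome 19 (47854970 to 47864790, plus strand). Its level was 290, 172 and 308 CPM in LAMA3_KO 1 to 3, against 82.5, 96.5 and 131 CPM in Control 1 to 3. LAMA3_KO 2 was the lowest of the knockouts and still lay above Control 3, the highest control. The means were 256 ± 73.6 CPM in knockouts and 103 ± 25.1 CPM in controls (SD, n = 3 each), a log2 fold change of 1.31 (SE 0.26, edgeR's adjusted p = 0.00840). The call held with each library left out (adjusted p 0.00491 to 0.0308) and was lost in a test against a fold of 1.5 (adjusted p = 0.0516). Its neighbour Gsto2, on the same strand of chromosome 19, was measured at 0.899 ± 0.0490 CPM in knockouts and 1.34 ± 0.224 CPM in controls and was not called (log2 fold change -0.57, SE 0.28, edgeR's adjusted p = 0.147). Suprabasal keratinocyte markers moved in the same direction as Gsto1, with 7 of 9 higher and sums of 28372 to 44850.0 CPM in knockouts and 11999 to 15826 CPM in controls, led by Tgm1 (2.16) and Dsc1 (2.05), and their part in the Gsto1 difference was not tested.

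The alpha class was low. Gsta4, whose enzyme is known for clearing 4-hydroxynonenal, an aldehyde from oxidised lipids, lies on chromosome 9 (78182774 to 78209349, plus strand). It was measured at 8.84, 3.80 and 20.4 CPM in LAMA3_KO 1 to 3, against 2.63, 8.34 and 3.93 CPM in Control 1 to 3. The groups overlapped and LAMA3_KO 3 stood apart from the rest. The log2 fold change was 1.15 (SE 0.64, edgeR's adjusted p = 0.193), and it was called only among the alternatives tried when sex was a covariate (1.52, adjusted p = 0.0272), while without LAMA3_KO 3 it was 0.36. Within females the mean was 6.32 CPM in 2 knockouts and 2.63 CPM in 1 control, and within males 20.4 CPM in 1 knockout and 6.13 CPM in 2 controls.

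Gsta3, on chromosome 1 (21240589 to 21265661, plus strand), encodes an alpha class enzyme that in mouse liver detoxifies aflatoxin epoxide. It was measured at 3.13, 7.23 and 1.96 CPM in LAMA3_KO 1 to 3, against 5.68, 2.91 and 2.83 CPM in Control 1 to 3, from 54 to 207 counts per library. LAMA3_KO 2 and Control 1, both female, were the highest libraries, and the groups overlapped. The log2 fold change was 0.11 (SE 0.50, edgeR's adjusted p = 0.877), and its sign was negative with upper-quartile factors (-0.04), limma-voom (-0.01), sex as a covariate (-0.33) and without LAMA3_KO 2, Control 2 or Control 3 (-0.58 at the lowest), none of them called.

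Gstt1, the theta class enzyme that acts on small halogenated compounds, was the lowest of the tested members. Its counts were 21, 13 and 47 in LAMA3_KO 1 to 3, against 39, 16 and 34 in Control 1 to 3. The groups overlapped at 1.02 ± 0.636 CPM in knockouts and 1.26 ± 0.463 CPM in controls (SD, n = 3 each). Gstt1 was not called, at a log2 fold change of -0.31 (SE 0.51, edgeR's adjusted p = 0.653).

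Gstp1 encodes the pi class transferase, known as an abundant enzyme of many epithelia. The table lists it at 1, 0 and 0 counts in LAMA3_KO 1 to 3, and at 0, 0 and 1 in Control 1 to 3. These values cannot be read as the absence of Gstp1 RNA. Gstp1 (chromosome 19, 4035407 to 4037985, minus strand) is the first of 18 consecutive protein-coding genes, up to Pold4, in which no library held more than 3 counts. All 6 libraries together held 21 counts over these 18 genes, which span 198 kb. Genes that all cells use lie among them, such as Ppp1ca, a catalytic subunit of protein phosphatase 1 (1 count in knockouts and 0 in controls), and Pold4, a subunit of DNA polymerase delta (0 and 0).

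The genes directly on either side held many counts. Ndufv1, before the stretch, held 7378 counts in knockouts and 6491 in controls, and Ssh3, after it, held 12504 and 6779. The transcript of Gstp1 shares 52.8% of its 100-base words with other genes, Gstp2 and the pseudogene Gstp-ps, so a part of it is its own. Gstp2 and Gstp3, in the same stretch, were at 1 and 0 counts over all libraries. Gstp-ps, on chromosome 1, held 300, 291 and 264 counts in LAMA3_KO 1 to 3, against 391, 533 and 398 in Control 1 to 3, and was called lower (log2 fold change -0.84, SE 0.22, edgeR's adjusted p = 0.0206). Whether its reads arose from the pseudogene or from its parent genes was not tested, and why the stretch is empty was not tested. No level of Gstp1 is therefore read from these counts.

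**Figure D2:**
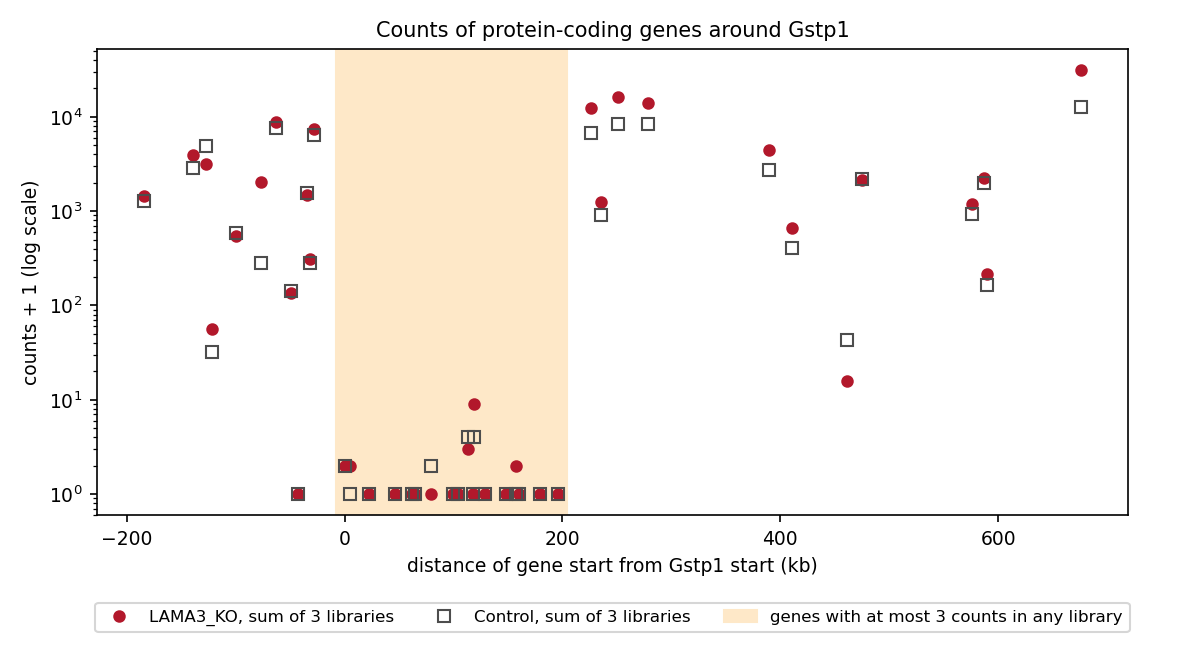
Counts plus 1, summed over 3 libraries of each group (y axis, log scale), of protein-coding genes by the distance of their start from that of Gstp1 (x axis, kb), with LAMA3_KO as filled circles and Control as open squares. The 18 genes in the shaded stretch, Gstp1 at its left end, hold at most 3 counts in any library, while Ndufv1 and Ssh3 on either side hold 13869 and 19283 counts over all libraries.

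The order of the members by level differed between the groups. Levels between genes are compared as CPM per kilobase of merged exons, without Gstp1. In knockouts Gsto1 led with 127 ± 36.4 CPM per kilobase, ahead of Gstm1 (47.8 ± 1.77), Gstm5 (41.0 ± 6.54), Mgst1 (30.9 ± 6.75) and Gstm2 (24.8 ± 4.32). In controls Mgst1 led with 123 ± 30.2 CPM per kilobase, ahead of Gstm5 (81.6 ± 19.2), Gstm1 (57.4 ± 2.17), Gstm2 (52.8 ± 6.04) and Gsto1 (51.1 ± 12.4). The ranges of these neighbours overlapped between Gstm5 and Mgst1 and between Mgst1 and Gstm2 in knockouts, and between Mgst1 and Gstm5, Gstm1 and Gstm2, and Gstm2 and Gsto1 in controls. Gsta4, Mgst2, Gsta3 and Gstt1 followed at 8.69 down to 0.665 CPM per kilobase in knockouts and at 5.95 down to 0.824 in controls.

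The leading place passed between a membrane-bound member, Mgst1, and a cytosolic member, Gsto1. Mgst1 held 11.4%, 10.6% and 10% of the summed level per kilobase of the 9 members in LAMA3_KO 1 to 3, against 37.9%, 29.3% and 29.8% in Control 1 to 3. Gsto1 held 45.5%, 38.9% and 45.5% in LAMA3_KO 1 to 3, against 9.83%, 14.0% and 17.2% in Control 1 to 3. The ratio of Gsto1 to Mgst1 per kilobase was 3.97, 3.66 and 4.55 in LAMA3_KO 1 to 3, against 0.259, 0.479 and 0.576 in Control 1 to 3, and the groups were far apart. The 3 mu class genes together held 35.9% to 46.3% in knockouts and 49.8% to 53.0% in controls. The sum itself was 315, 219 and 334 CPM per kilobase in LAMA3_KO 1 to 3, against 415, 340 and 378 in Control 1 to 3. Every knockout lay below every control, LAMA3_KO 3 only just below Control 2. Without the scaling by length the groups overlapped. That sum was 578, 393 and 613 CPM in LAMA3_KO 1 to 3, against 724, 589 and 670 CPM in Control 1 to 3. These sums and shares describe chosen members and carry no test.

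**Figure D3:**
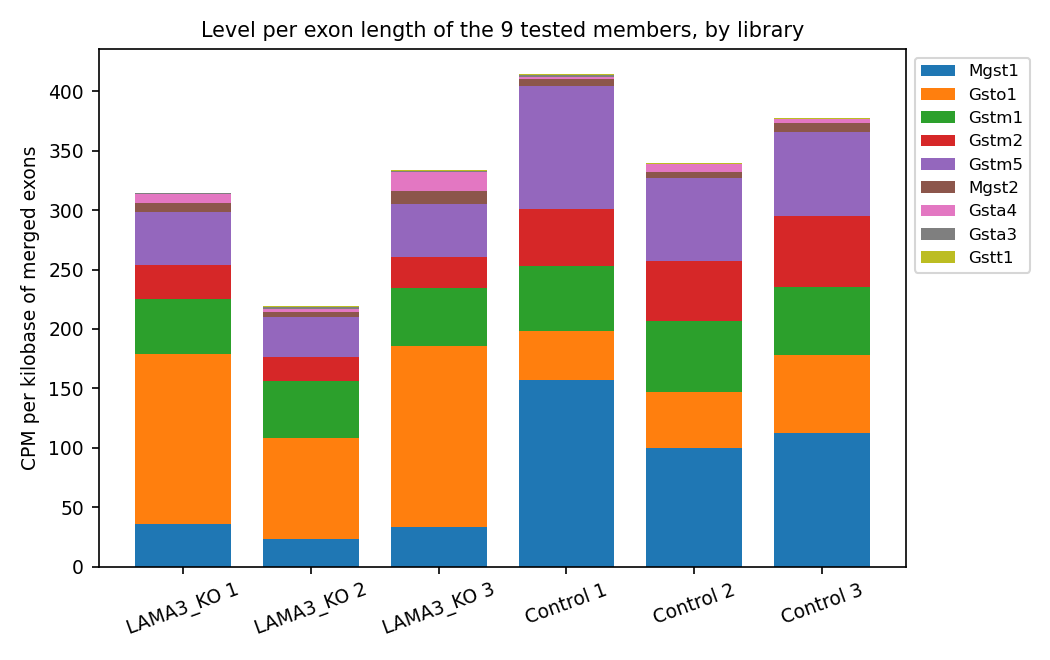
Level per exon length (y axis, CPM per kilobase, linear from 0) of the 9 tested members, stacked, in each LAMA3_KO and Control library (x axis). Mgst1 at the base is the largest part of each Control bar and Gsto1 is the largest part of each LAMA3_KO bar, and LAMA3_KO 2 has the lowest bar, at 219 CPM per kilobase.

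The knockout libraries differed among themselves. LAMA3_KO 2 was the lowest knockout library for 7 of the 9 members, while it was lowest for 34.7% of all genes tested, and LAMA3_KO 3 was the highest for 6 of 9, against 34.5% of all genes. Among the controls, Control 1 was highest for 4 members and lowest for 4. Sex and group were partly mixed, so each direction was also read within sex. For Mgst1 the log2 ratio of mean CPM was -2.41 between 2 female knockouts and 1 female control and -1.67 between 1 male knockout and 2 male controls. For Gsto1 it was 1.48 in females and 1.43 in males, for Gstm2 -0.97 and -1.11, and for Gstm5 -1.41 and -0.65. The 4 called members thus kept their direction within each sex, which holds too few mice for a test, while Gstt1 had -1.32 in females and 0.70 in males.

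The rest of the transferase family was read from a list of 19 further genes, of which 16 were tested, 1 rose and 5 fell, with a median log2 fold change of -0.43. That is 37.5% called, near the background of 36.2%, and 3 genes were called without Control 1. The gene that rose was Ptges, an inducible prostaglandin E2 synthase of the same membrane family as Mgst1. It stood at 185, 144 and 190 CPM in LAMA3_KO 1 to 3, against 73.6, 45.3 and 45.6 CPM in Control 1 to 3. All knockouts lay above all controls, and the log2 fold change was 1.66 (SE 0.22, edgeR's adjusted p = 0.00246).

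Gstz1, the zeta class isomerase of tyrosine breakdown, had the smallest p in this list. Its level was 19.3, 19.6 and 22.6 CPM in LAMA3_KO 1 to 3, against 47.1, 47.3 and 47.6 CPM in Control 1 to 3. Both groups were narrow and well apart, and the log2 fold change was -1.21 (SE 0.11, edgeR's adjusted p = 0.000905). Mgst3, the third microsomal transferase, fell by 0.79 (SE 0.15, adjusted p = 0.00734) to 42.2 ± 2.04 CPM in knockouts, against 73.0 ± 14.4 CPM in controls (SD, n = 3 each). Mgst1 and Mgst3 thus fell while Mgst2 was not called.

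The other falls were smaller or less firm. Gsta2 fell by 1.00 (SE 0.30, edgeR's adjusted p = 0.0332), Gstt2 by 1.17 (SE 0.32, adjusted p = 0.0257) and Gstcd by 0.41 (SE 0.12, adjusted p = 0.0344). Gsta2 shares 64.2% of its 50-base words with other genes, Gsta1 among them. The Gsta2 call was lost without Control 1, Control 2, LAMA3_KO 2 or LAMA3_KO 3 (adjusted p up to 0.0931) and the Gstt2 call without Control 1, Control 3, LAMA3_KO 1 or LAMA3_KO 2 (up to 0.0831). The Gstcd call was lost whichever library was left out (up to 0.108). Gsta1, which shares 89.7% of its 50-base words with other genes, was not called (-0.31, SE 0.21, edgeR's adjusted p = 0.267).

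Among those not called were further mu and theta genes, with Gstm4 at a log2 fold change of -0.35 (SE 0.23), Gstm6 at 0.72 (SE 0.42), Gstm7 at -0.07 (SE 0.38) and Gstt3 at -0.45 (SE 0.17). Gstk1, the kappa class enzyme of mitochondria and peroxisomes, was at -0.28 (SE 0.14). The eicosanoid genes of the family were not called either, with Hpgds, a prostaglandin D2 synthase, at -0.13 (SE 0.31), Alox5ap, the 5-lipoxygenase activating protein, at -0.77 (SE 0.41) and Ltc4s, leukotriene C4 synthase, at -0.62 (SE 0.51). All 9 of 9 markers of T cells were called lower in the knockouts (sums of 75 to 95.5 CPM in knockouts and 179 to 340 CPM in controls). Of 8 macrophage markers 3 rose without overlap, the complement genes C1qa (2.06), C1qb (1.66) and C1qc (1.33), while the summed level, most of it Csf1r, overlapped (39.0 to 59.4 CPM in knockouts and 28.2 to 63.4 CPM in controls). Gstm3, Gstp2 and Gstt4 had too few counts to be tested, with at most 12 counts in a library.

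**Figure D4:**
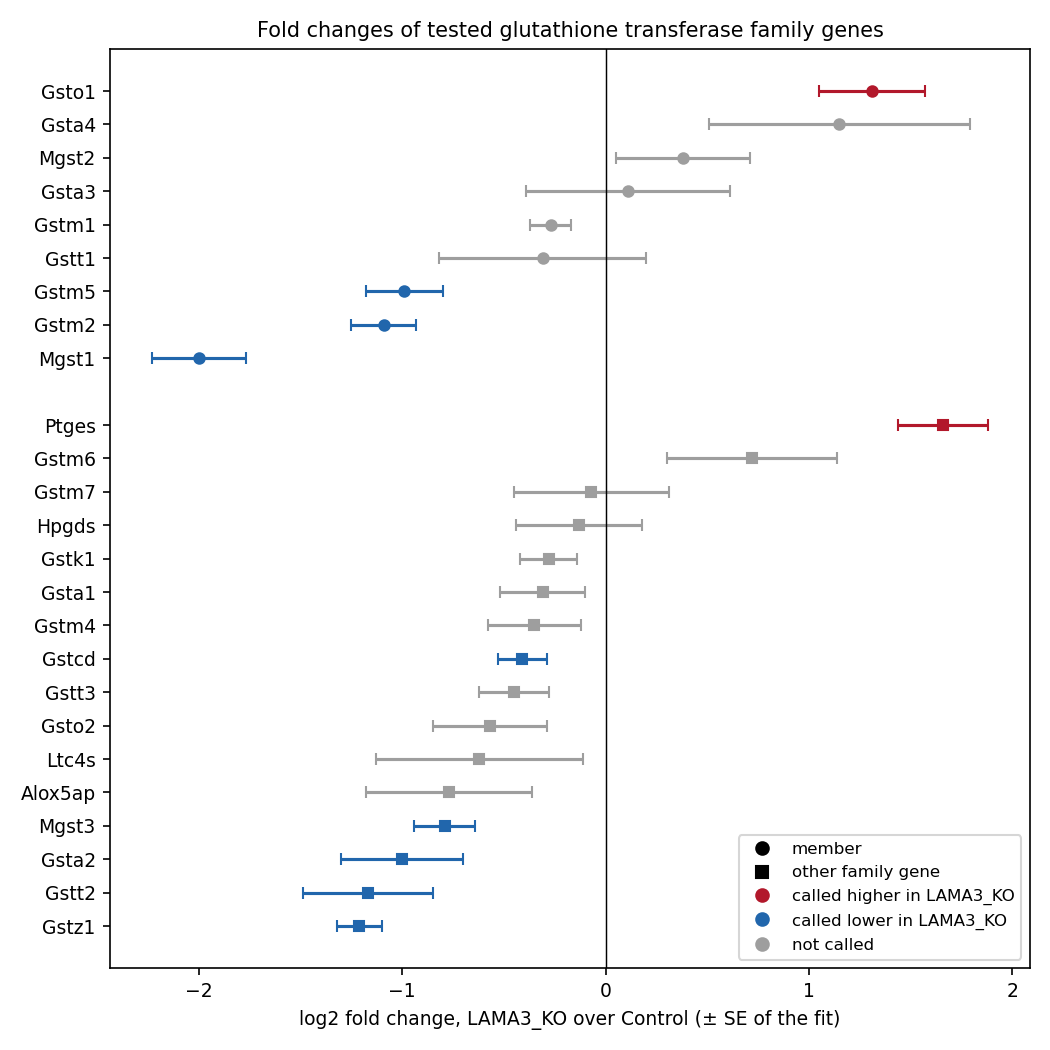
Log2 fold changes of LAMA3_KO over Control with the SE of the fit (x axis) for the 9 tested members (circles) and 16 tested further family genes (squares), ordered by fold change within each set. Gsto1 and Ptges are the genes called higher, and 8 genes are called lower, from Mgst1 at -2.00 to Gstcd at -0.41.

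The other marker lists differed as follows. Neutrophil markers summed to 154 to 1512 CPM in knockout libraries and 7.75 to 35.9 CPM in control libraries, most of it S100a8 and S100a9. All 3 of 3 tested were higher, S100a9 at 5.74, S100a8 at 5.44 and Cxcr2 at 4.55 on the log2 scale. Ly6g and Elane were at 0. Csf3r (means of 0.0121 CPM in knockouts and 0.0144 CPM in controls) and Mpo (0.124 and 0.0406 CPM) had too few counts to be tested. Which cells the S100a8, S100a9 and Cxcr2 counts came from was not tested. Melanocyte markers summed to 53.5 to 59.1 CPM in knockouts and 81.1 to 210 CPM in controls (5 of 6 lower, Tyr at -3.93 and Dct at -3.24), and erythroid markers to 1.82 to 3 and 13.3 to 23.2 CPM (4 of 5 lower, Hba-a1 at -2.41 and Hbb-bs at -4.63). Endothelial markers summed to 1.5 to 2.07 CPM in knockouts and 3.14 to 4.6 CPM in controls (Egfl7 lower at -1.45, Pecam1 not called at -0.93), and adipocyte markers to 208 to 293 and 116 to 132 CPM. That adipocyte sum was carried by Adipor2 (1.14) and Pnpla2 (0.82), which many cell types express. The other 5 adipocyte markers had too few counts to be tested, among them Adipoq, which averaged 0.0237 ± 0.0206 CPM in knockouts and 0.292 ± 0.129 CPM in controls (SD, n = 3 each). Sums overlapped for upper follicle, Langerhans and dendritic cell, and muscle markers, although single genes of the follicle and Langerhans lists were called. Of 8 upper follicle markers 3 fell, Cst6 (-1.47), Defb6 (-1.57) and Lrig1 (-0.86), and Krt17 rose (0.85). Of 8 Langerhans and dendritic cell markers 1 fell, Cd207 (-1.68). The part of these cells in the family's differences was not tested.

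The supply and recycling of glutathione, the substrate shared by all members, were read from 19 genes. Of these 7 rose, 3 fell and 9 were not called, at a median of 0.13 on the log2 scale. Genes of glutathione turnover and recycling, Chac1 (1.24), Ggct (0.97) and Glrx (1.46), are among those that rose, so the count does not describe supply alone. In the whole list 52.6% were called, against 36.2% of all genes tested. Without LAMA3_KO 1, 6 of the 19 genes were called in place of 10. Slc7a11, the light chain of the cystine importer that feeds glutathione synthesis, had 34.5, 7.02 and 28.5 CPM in LAMA3_KO 1 to 3, against 0.603, 1.29 and 1.3 CPM in Control 1 to 3. LAMA3_KO 2 was again the lowest knockout, and all knockouts lay above all controls (log2 fold change 4.45, SE 0.65, edgeR's adjusted p = 0.00391). Oplah, which returns 5-oxoproline from glutathione turnover to glutamate, rose by 1.12 (SE 0.16, adjusted p = 0.00302), and Idh1, a cytosolic source of NADPH, fell by 0.79 (SE 0.12, adjusted p = 0.00416). The genes of the synthesis enzymes themselves, chosen after their values were seen, were not called higher. Gclc and Gclm, the subunits of the rate-limiting ligase, had log2 fold changes of 0.02 (SE 0.11) and 0.03 (SE 0.23) and were not called, and Gss, glutathione synthetase, fell by 0.44 (SE 0.12, adjusted p = 0.0257).

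Among 18 tested glutathione peroxidase, peroxiredoxin and related genes 2 rose and 6 fell (44.4% called, against 36.2% of all genes), with a median of -0.22. Gpx4, the peroxidase that reduces lipid hydroperoxides in membranes, had 78.3, 80.2 and 103 CPM in LAMA3_KO 1 to 3, against 380, 264 and 332 CPM in Control 1 to 3. The groups were far apart, and the log2 fold change of -1.90 (SE 0.18, edgeR's adjusted p = 0.00108) was close in size to that of Mgst1. Sod1, the cytosolic superoxide dismutase, fell by 0.88 (SE 0.11, adjusted p = 0.00193) and Prdx4, the peroxiredoxin of the endoplasmic reticulum, by 1.28 (SE 0.17, adjusted p = 0.00232). Without Control 3 or without LAMA3_KO 1, and also when length and GC offsets were used, 5 of these genes were called in place of 8. Of 13 tested genes for export and trimming of glutathione conjugates 4 rose and 3 fell (53.8% called, against 36.2% of all genes, median 0.02), with Dpep1, a membrane dipeptidase, at 2.57 (SE 0.40), Lap3, a leucine aminopeptidase, at -1.04 (SE 0.18) and the exporter Abcc5 at -0.61 (SE 0.12).

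Other enzymes that clear reactive compounds were read beside the family. Of 20 tested genes for lipid aldehyde and carbonyl clearance 5 fell and 15 were not called (25% called by edgeR, against 36.2% of all genes, median -0.09), with Ptgr2 at -0.62 (SE 0.11), the carbonyl reductase Cbr1 at -1.03 (SE 0.19) and Aldh1a1, which oxidises retinal, at -1.97 (SE 0.41). Aldh1a3 was measured at a log2 fold change of 1.74 (SE 0.71) without being called. Of 17 tested genes of other xenobiotic metabolism 4 rose and 4 fell (47.1% called, against 36.2% of all genes, median -0.11), with the carboxylesterase Ces1d at -2.47 (SE 0.28), the cytochrome P450 reductase Por at 1.01 (SE 0.15) and Sult2b1, which sulfates cholesterol in the epidermis, at 0.85 (SE 0.17).

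NRF2, its regulators and partners, and its targets outside the transferases numbered 26 tested genes. Of these 10 rose, 3 fell and 13 were not called, with a median of 0.16. That is 50% called, against 36.2% of all genes tested. The genes that rose include Nfe2l2, Bach1 and the small Maf genes Maff (1.79), Mafg (0.55) and Mafk (1.02), so the share called does not describe the targets alone. Bach1, which competes with NRF2 at its sites, rose by 0.86 (SE 0.11, edgeR's adjusted p = 0.00229), and Hmox1, heme oxygenase 1, by 1.09 (SE 0.19, adjusted p = 0.00524). Slc7a11, given above, stands on this list too. The other genes that rose were Srxn1 (1.38), G6pdx (0.59) and Sqstm1 (0.58). The 3 that fell were Blvrb (-1.02), Taldo1 (-0.57) and Nqo1, given below. Nfe2l2, which encodes NRF2, and Nqo1, its widely used target gene, were chosen after their values were seen. Nfe2l2 rose by 0.50 (SE 0.12, adjusted p = 0.0141), and Nqo1 had 14.8, 8.69 and 18.1 CPM in LAMA3_KO 1 to 3, against 20.2, 29.6 and 30.1 CPM in Control 1 to 3, a fall of 0.94 (SE 0.28, adjusted p = 0.0324). Members of the transferase family with a TGACNNNGC match were lower (Mgst1, Gstm5) or not called (Gsta3), while the window of Slc7a11, which rose, held no match. Letter matches in 250 bases do not show which genes NRF2 controls, and its part in these differences was not tested. The number of the 26 genes called was 8 without Control 2 or without Control 3, against 13.

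**Figure D5:**
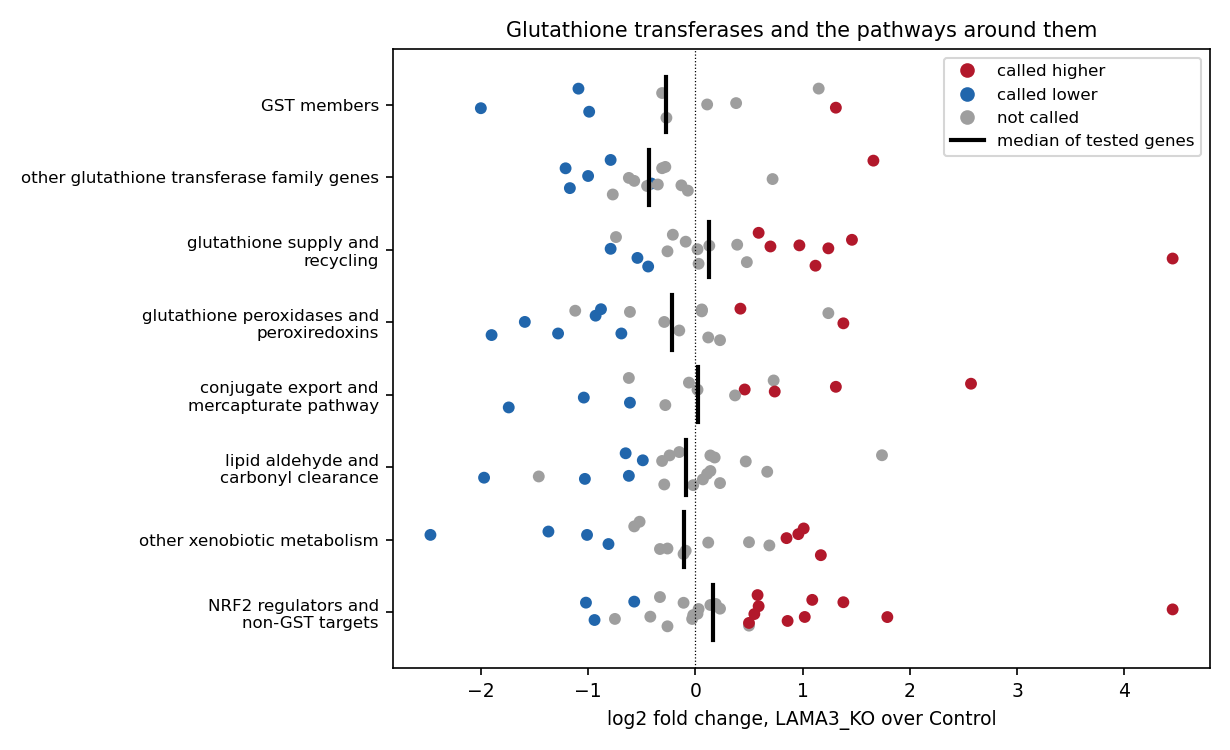
Log2 fold changes of LAMA3_KO over Control (x axis) of the tested genes of each list (rows), with points coloured by call and a black line at the median of each list. Medians lie between -0.43 and 0.16, and each row except lipid aldehyde and carbonyl clearance holds genes called in both directions, with Slc7a11 at 4.45 the highest value.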

How the data were processed

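The values were raw counts per Ensembl gene, deposited by the authors as a single table with a column per library. The build GRCm38 and the tools featureCounts 1.4.6, TopHat 1.3.3 and Cuffdiff 1.3.0 stand in the submitters' processing notes, without order or settings; the annotation release, strand and multiple-match settings are not given in the sources used here. GENCODE M21 (GRCm38) gave symbols for 44671 of 45513 identifiers, positions and exon lengths. Per-library totals (20126395 to 28473479) set the precision of low values. Each mouse was counted as 1 replicate, and no 2 libraries were copies.

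All 6 libraries were fitted in edgeR 4.0.16 (R 4.3.3) with TMM factors, filterByExpr, robust quasi-likelihood and group alone in the design, which tested 15513 of 25742 identifiers with any count. Calls used an adjusted p under 0.05, Benjamini-Hochberg over all genes tested; every adjusted p in the report is from this test unless another is named. SE is the log2 fold change over the square root of F. The procedure was tested on simulated data. CPM are scaled by TMM; 50-base and 100-base words came from GENCODE transcripts.

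The members and lists were chosen with earlier results of these data known. Named were all members, Lama3 and Lamb3, every tested family gene, from each pathway list the 3 called genes of smallest p, and 2 markers of smallest p for lists whose sums did not overlap. Nqo1, Nfe2l2, Maff, Mafg, Mafk, Srxn1, G6pdx, Sqstm1, Blvrb, Taldo1, Gclc, Gclm, Gss, Chac1, Ggct, Glrx, Aldh1a3, Gstp-ps, Gstp3, the neighbours of Gstp1 and all further markers were chosen after their values were seen. Same-numbered libraries were not paired by any label. Alternatives were other scalings, filters and tools (DESeq2 1.42.0, limma-voom 3.58.1), a replicate block, sex, length and GC offsets, each library left out, an adjusted p under 0.01 and a fold of 1.5. Protein sequences were not used here.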

Additional observations from a re-analysis of the deposited data

How the results depend on the processing

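Mgst1 and Gstm2 kept their direction and call under every alternative run, and Gsto1 and Gstm5 under all but the test against a fold of 1.5 (adjusted p = 0.0516 at a log2 fold change of 1.31, and 0.0845 at -0.99). That test left 527 genes higher, 692 lower and 0 members higher, and 2 called further family genes, 3 of glutathione supply, 4 of the peroxidases, 1 of conjugate export, 1 of carbonyl clearance, 2 of xenobiotic metabolism and 3 of the NRF2 list. An adjusted p under 0.01 left 1115 higher and 1009 lower, and 3, 4, 5, 4, 2, 4 and 5 called genes in these lists in the same order. Upper-quartile factors moved the median of all genes to -0.17 from -0.02 and called 1756 higher (30.6% of calls, against 48.0%); relative to that shift Gstm1 (-0.41, called) hardly moved, and Gsta3 was at -0.04. Gstm1 was also called with a filter of 1 CPM (-0.28). With sex as a covariate 2 members were higher, Gsta4 (1.52) being added, Gsta3 was at -0.33 and Gstm7 at 0.18. Length and GC offsets, which covered 99.5% of tested genes, called 5 peroxidase genes and put Gsta1 at 0.05 and Gstm7 at 0.09. Limma-voom put Gsta3 at -0.01. The cause of these changes was not tested.

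Leaving out each library gave 1586 to 2754 genes higher and 1714 to 2771 lower, 1 member higher and 3 lower throughout, 3 to 5 further family genes called, 6 to 10 of glutathione supply, 5 to 9 of the peroxidases, 5 to 8 of conjugate export, 4 to 5 of carbonyl clearance, 7 to 9 of xenobiotic metabolism and 8 to 13 of the NRF2 list. Log2 fold changes ranged from -0.58 to 0.52 for Gsta3, -0.92 to 0.05 for Gstt1, -0.35 to 0.20 for Gstm7, -0.39 to 0.24 for Hpgds and -0.96 to 0.17 for Ltc4s.

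With the replicate number as a block, 2422 genes were higher and 2701 lower, Gsta3 was at -0.03, and the 4 called members stayed called. Same-numbered libraries correlated at -0.114, -0.098 and 0.419 in their deviations from the group means, and LAMA3_KO 1 and 2 did not correlate best with their own number. The table gives no usable value for Gstp1.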
